A study of Brassica napus with 12 samples.

Results

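The genes described here are 150 genes of Brassica napus (oilseed rape) whose transcripts were higher in the leaves of silicon-supplied plants while the same ordering was not seen in roots. They were chosen from the measured values. Of 52962 gene identifiers, those on chromosome C03 were left out, which kept 48893. A mean of at least 1 CPM (counts per 1000000 summed gene counts of a library) over the 6 leaf libraries was reached by 35366 of these, called expressed leaf genes below. In 2475 of them (7.0%) all 3 leaf libraries with Si lay above all 3 without, and in 2177 of those the roots did not show the same complete separation. The 150 with the highest leaf ratio, log2 of (mean CPM with Si + 0.5) over (mean CPM without Si + 0.5), are the members. The leaf and root values of Si against no Si therefore made the choice and are given as a description, with no support drawn from them.

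Wild-type plants of the variety Citizzen were germinated for 4 days, kept in nutrient solution for 10 days and moved to tanks of the same aerated solution. When leaf 4 emerged, 1 week of treatment began, with 1.7 mM Si (sodium metasilicate) for the Si groups and 3.4 mM NaCl, equal in sodium, for the no-Si groups. Only the no-Si solution received the chloride of that NaCl, and the effects of this chloride and of Si cannot be told apart. The groups are leaf no Si, leaf Si, root no Si and root Si, with 3 libraries each and 12 in all, with 200 mg stated for each. The leaf samples carry the title mature leaf and the tissue label aerial. The labelled planting date was 12 February for all no-Si libraries and for leaf Si replicate 3, and 21 March for the other Si libraries, with harvest on 28 March for all 12. The 21 March label lies too close to harvest for the germination, nutrient solution and treatment times given above, so what that date marks is not clear. In roots the labelled date and Si cannot be told apart. The labels speak of biological replicates without saying how many plants each held, so p-values measure the spread between these libraries. In such bulk samples, fewer cells of a type and less RNA per cell cannot be told apart.

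Plants take up silicon as silicic acid from the root medium, and it moves to the shoot with the water stream and is deposited as silica, largely in cell walls. Rapeseed and its relatives accumulate little of it compared with grasses, and silicon supply is known mainly for easing abiotic and biotic stress. Brassica napus is an allotetraploid that carries an A subgenome from a Brassica rapa ancestor and a C subgenome from a Brassica oleracea ancestor. Most of its genes therefore have a closely similar copy on the other subgenome, and a read from one copy can be lost as multimapping or be counted for the other. The level of any single copy below is uncertain to that extent.

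The files give identifiers without names or functions. The identifier states the chromosome, with Ann and Cnn for sequence of the A or C subgenome not placed on a chromosome. Only 3 members equalled a symbol in RefSeq's table for the Da-Ae assembly, BnaA06g27930D, BnaA08g00370D and BnaCnng49470D, all listed as protein coding and none with a function. No role is therefore given for any member, and markers of leaf or root cells could not be matched by name. As a description, 200 genes chosen from these libraries because they were limited to roots summed to 31935 to 34848 CPM in the 6 root libraries. In leaves they summed to 91.8 to 131.7 CPM without Si and to 56.8 to 105.8 CPM with Si, and no member was among them. Low leaf sums were fixed by the choice of these genes, so they cannot measure tissue purity. The absence of members among them is no separate result either, since the rule set a minimum leaf level.

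Summed gene counts per library ran from 14429867 to 21792206. Leaf no Si replicate 2 was the smallest library, with 15.6% of its reads unmapped, and it stands apart for a group of members described below. CPM is not divided by gene length, so levels are compared between libraries and not between genes.

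The leaf ratio that ranked the members ran from 2.32 down to 0.57 on the log2 scale, with a median of 0.71, against a median of 0.05 over the expressed leaf genes. The mean CPM with Si was 1.502 to 6.10 times that without, with a median of 1.78, and 38 of the 150 members reached a ratio of means of 2. The gap between the groups was often narrow. The lowest Si library was 1.00 to 2.91 times the highest no-Si library, with a median of 1.16, and it was under 1.1 times in 45 members and at least 1.5 times in 14. Many members were expressed at low levels: 77 (51.3%) had a mean leaf level under 5 CPM, against 31.5% of the expressed leaf genes. Their reads summed over the 3 leaf no-Si libraries ran from 21 to 15794, with a median of 189.5.

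**Figure D1:**
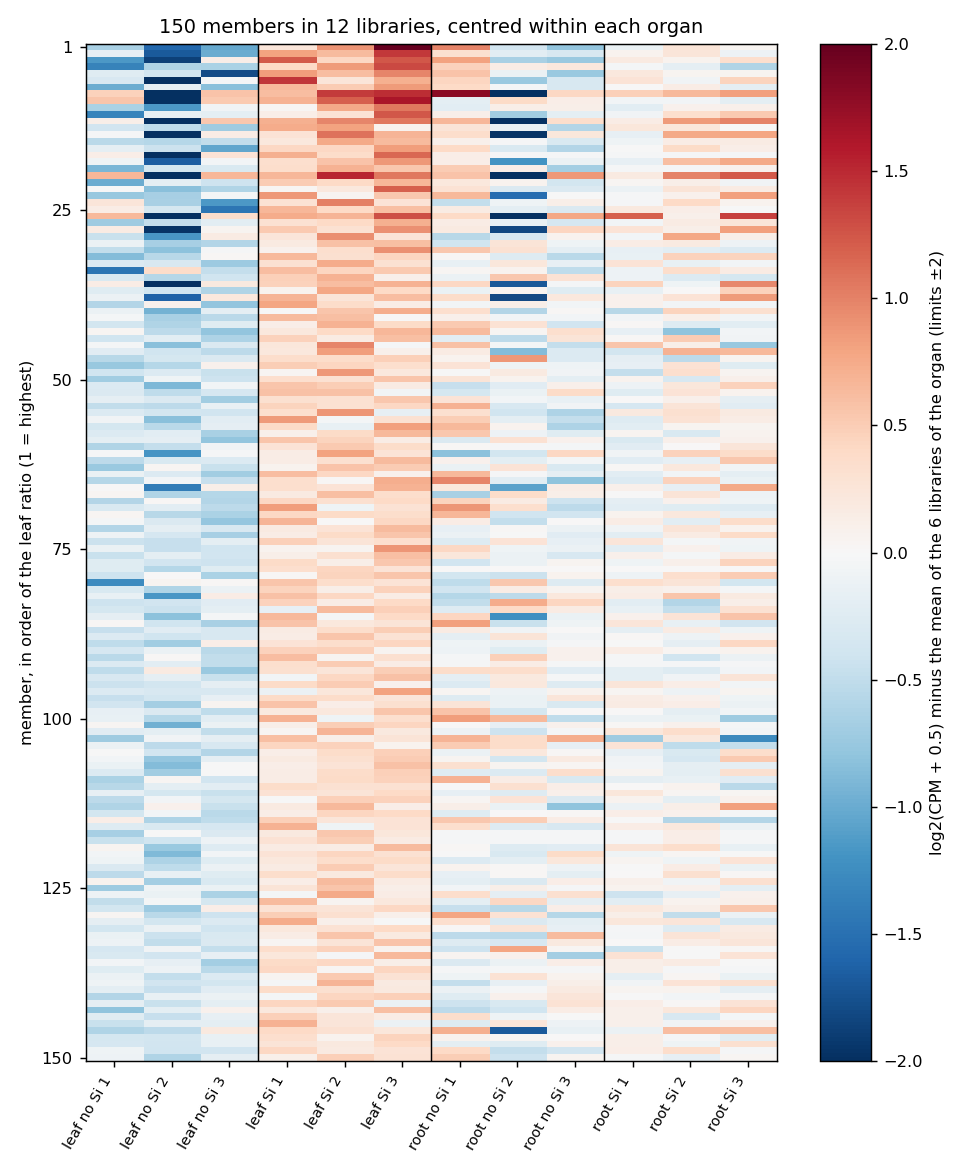
Each row is a member in the order of the leaf ratio and each column a library. Colour is log2(CPM + 0.5) minus the mean of the 6 libraries of the same organ, drawn within limits of ±2. The leaf columns are ordered by the choice of the members, while the root columns show no shared pattern of Si against no Si. Leaf no Si 2 is dark blue in a few rows near the top, and so is root no Si 2 in many of them.

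BnaC08g37940D headed the list. It stood at 7.53, 3.74 and 5.69 CPM in the leaf no-Si libraries and at 14.4, 23.0 and 53.5 CPM in the leaf Si libraries, means of 5.65 ± 1.89 and 30.3 ± 20.5 CPM (SD, n = 3). The groups did not overlap, but Si replicate 3 stood far above the other two, and without it the leaf ratio was 1.64 in place of 2.32. In roots it stood at 160.6, 61.9 and 46.3 CPM without Si and at 73.3, 96.6 and 83.8 CPM with Si, so there the groups overlapped, with 1 high no-Si library.

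BnaA08g11390D was next, with 5.46, 1.59 and 2.85 CPM in leaves without Si and 11.1, 9.86 and 17.4 CPM with Si, a ratio of means of 3.87. Its root libraries held 51.5, 35.5 and 33.0 CPM without Si and 43.1, 48.6 and 38.5 CPM with Si. Both members were far more abundant in roots than in leaves without Si, and their root groups overlapped. BnaA06g11500D had the same layout, with 5.23, 4.64 and 1.45 CPM in leaves without Si, 11.6, 9.86 and 12.8 CPM with Si, and root means of 64.3 ± 29.1 and 69.7 ± 4.82 CPM (SD, n = 3).

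BnaC07g50920D had the largest ratio of leaf means, 6.10, at a low level. It held 0.138, 0.554 and 0.537 CPM in leaves without Si, only 21 reads in all, and 1.62, 2.39 and 3.49 CPM with Si. The lowest Si library was 2.91 times the highest no-Si library, the widest gap among the members. Its roots ran the other way, at 3.69, 2.85 and 3.01 CPM without Si and 2.43, 2.17 and 1.498 CPM with Si, again with no overlap.

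BnaA02g17670D was separated at a higher level, with 16.8, 29.9 and 18.8 CPM in leaves without Si and 53.4, 48.2 and 61.3 CPM with Si. Its roots overlapped fully, at 67.8 ± 17.56 CPM without and 65.6 ± 7.51 CPM with Si (SD, n = 3). BnaC09g39760D was a leaf gene, with 4.13, 2.77 and 6.34 CPM without Si, 6.92, 11.7 and 14.6 CPM with Si, and 4 reads over the 3 root libraries of either treatment. Its highest no-Si and lowest Si leaf libraries lay close together, a ratio of 1.09.

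The other 4 of the first 10 members were low or absent in leaf no Si 2. BnaC02g42720D held 21.9, 0.208 and 23.7 CPM in leaves without Si and 24.5, 42.7 and 45.1 CPM with Si, where 3 reads in leaf no Si 2 equal 0.208 CPM. BnaCnng01610D held 49.3, 0.901 and 48.2 CPM without and 54.5, 76.8 and 104.3 CPM with Si. In both, Si replicate 1 lay just above no-Si replicates 1 and 3. BnaA01g28190D held 0.321, 0 and 1.504 CPM without Si and 3.75, 1.92 and 3.84 CPM with Si, and BnaC01g01490D held 2.25, 0.347 and 2.90 CPM without and 8.77, 3.57 and 5.11 CPM with Si. In these last members the closest Si and no-Si libraries were farther apart, with ratios of 1.28 and 1.23, at low counts.

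**Figure D2:**
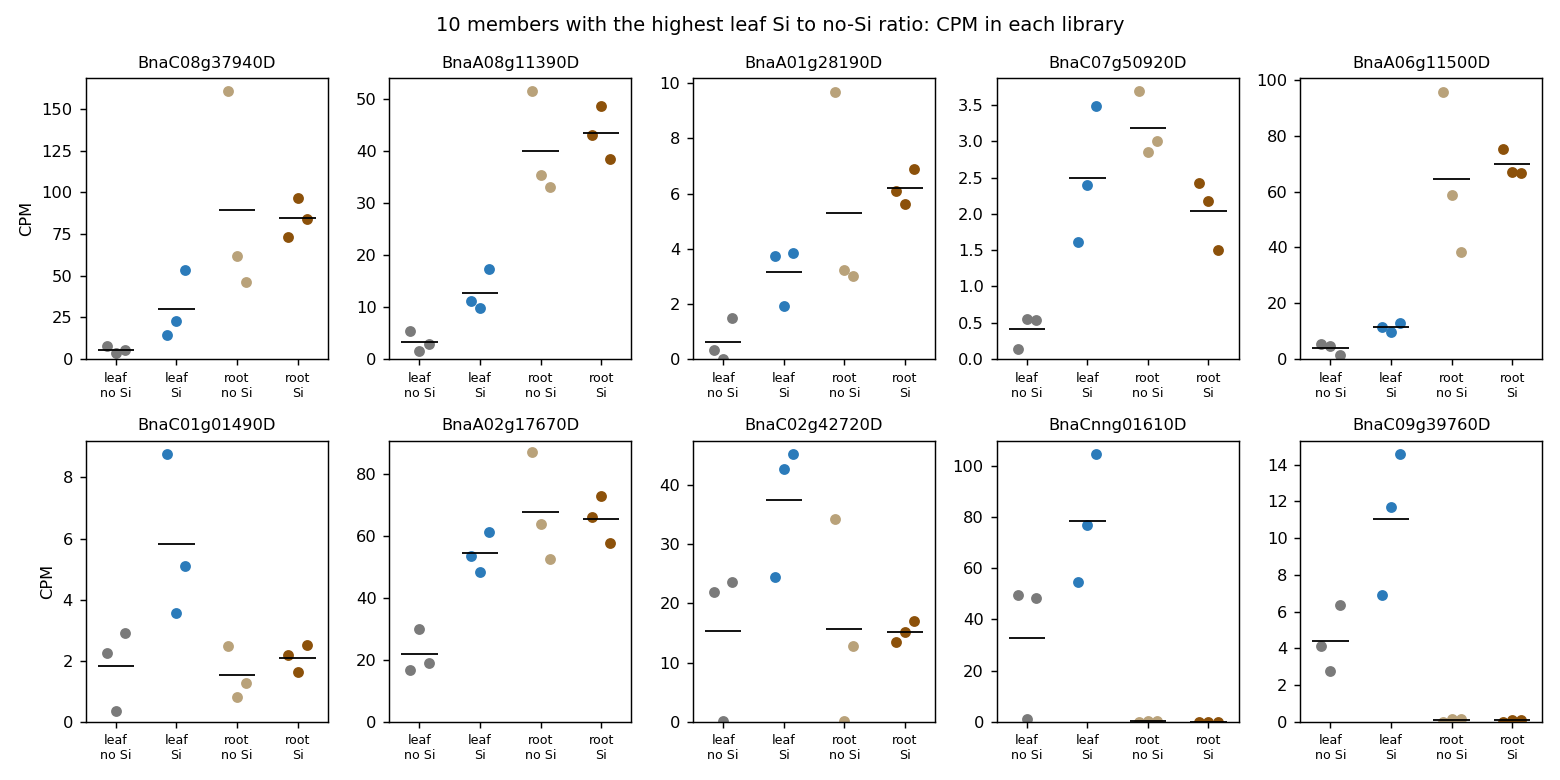
Points are CPM in each library and horizontal lines are group means (n = 3), in 1 panel per member with its own axis from 0, for leaf no Si, leaf Si, root no Si and root Si. BnaC08g37940D, BnaA08g11390D and BnaA06g11500D stand highest in roots, BnaC09g39760D and BnaCnng01610D have hardly any root reads, and the leaf Si 3 point of BnaC08g37940D at 53.5 CPM stands apart.

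At the limit of the list the values barely differed. The last members inside were BnaC02g00460D, BnaA09g10340D and BnaA10g01450D, and the first genes outside were BnaA09g09370D, BnaA07g02520D and BnaC05g21270D. All 6 had a leaf ratio of 0.57. BnaC02g00460D, for example, held 8.72, 8.39 and 10.0 CPM in leaves without Si and 13.4, 12.9 and 14.9 CPM with Si, while BnaA09g09370D held 11.2, 9.91 and 10.4 CPM without and 16.2, 17.7 and 13.7 CPM with Si. The list has no natural end between them.

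When the leaf contrast was fitted across all genes with edgeR's quasi-likelihood test (Benjamini-Hochberg adjustment), 0 of the 150 members passed an adjusted p of 0.05, where 0.00731% of the 41051 genes tested passed in either direction and 0.0% passed higher with Si. The smallest adjusted p of a member in that edgeR fit was 0.469. At an unadjusted p under 0.05 edgeR counted 131 members, against 4.09% of all genes, a share set by the choice of the members. DESeq2 counted 7 members as higher with Si (Benjamini-Hochberg adjusted p under 0.05), against 0.0219% of all genes. They were BnaA02g17670D, BnaA06g05150D, BnaA08g11390D, BnaC05g06430D, BnaC06g02740D, BnaC07g50920D and BnaC08g37940D. BnaA06g05150D among them had nearly equal no-Si libraries, 20.7, 20.4 and 21.3 CPM, beside 35.2, 51.4 and 47.6 CPM with Si.

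A set of members was low in leaf no Si 2 alone among the no-Si leaves. In 12 members (8%) it lay under 0.25 times the mean of leaf no Si 1 and 3, as it did in 1.31% of the expressed leaf genes. A low no-Si leaf library raises the ratio that ranked the members. The excess of such members and their high places in the list are thus partly set by the rule. Leaf no Si 1 or 3 lay that low in 0 members, and the matching share of expressed leaf genes was not counted. Of the 12, 8 stood among the first 20 of the list. Their median leaf ratio was 1.07, and 0.57 without leaf no Si 2, within 0.42 to 1.38. The other 138 members had a median of 0.68 with that library and 0.69 without it.

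The same low values were found in roots. Of the 10 such members with a mean of at least 1 CPM over root no Si 1 and 3, 8 were also under 0.25 times in root no Si 2. BnaC02g43180D held 18.2, 0 and 18.3 CPM in the leaf no-Si libraries and 11.5, 0.0633 and 14.1 CPM in the root no-Si libraries. BnaA08g00370D held 17.0, 0.347 and 13.6 CPM in leaves and 8.92, 0 and 11.7 CPM in roots, and BnaCnng53120D held 5.28, 0 and 7.25 CPM in leaves and 7.54, 0.127 and 5.96 CPM in roots. For each of these members both libraries numbered 2 of the no-Si plants were near or at 0 while replicates 1 and 3 were of like height. A count of 0 allows up to 0.208 CPM in leaf no Si 2 and 0.190 CPM in root no Si 2 (3 reads, counting error only). BnaC01g01490D and BnaA01g28190D were not under that limit in root no Si 2. Whether equal numbers in root and leaf mark the same plants is not given in the labels.

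Some of these members lay in runs of genes that were low together. BnaC02g42720D, BnaC02g43070D and BnaC02g43180D stand on C02 between BnaC02g42370D and BnaC02g44060D, where the 55 expressed leaf genes had a median leaf ratio of 0.51. BnaCnng01610D, BnaCnng01660D, BnaCnng01740D, BnaCnng02040D and BnaCnng02430D stand among 56 expressed leaf genes between BnaCnng01590D and BnaCnng02630D with a median of 0.46. Over all members, the 10 expressed genes on each side had a median leaf ratio of 0.06, from −0.12 to 0.59, and 6 members had a value of at least 0.3, all in those runs. Around BnaC02g42720D the side genes had a median of −2.59 for leaf no Si 2 relative to the other no-Si leaves, as log2. In the Cnn run the side-gene medians ranged from −2.53 around BnaCnng02040D to −0.99 around BnaCnng01610D and −0.55 around BnaCnng02430D. Not every member of that run was low itself: leaf no Si 2 stood at 0.795 times the mean of replicates 1 and 3 in BnaCnng01740D and at 0.656 times in BnaCnng02430D. Why these genes were low in that library was not tested.

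**Figure D3:**
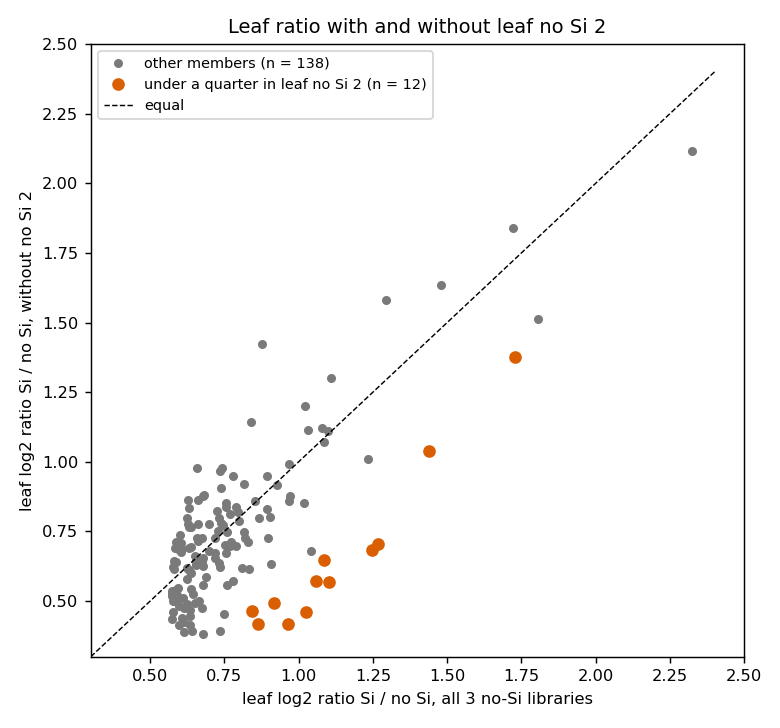
Each point is a member, with the leaf log2 ratio of Si over no Si from all 3 no-Si libraries on the horizontal axis and the same without leaf no Si 2 on the vertical axis. The dashed line marks equal values. The 12 orange members, under 0.25 times in leaf no Si 2, fall below the line, from a median of 1.07 to 0.57, while the 138 grey members scatter around it.

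Across the other libraries the members leaned on some replicates more than others. Leaf Si 3, the only Si leaf library with the earlier labelled date, was the highest of the Si leaves in 64 members (42.7%). It was so in 31.6% of the expressed leaf genes and in 35.9% of the 2475 genes separated in leaves. Leaf no Si 2 was the lowest no-Si leaf in 71 members (47.3%), against 42.3% and 31.9%. The median log2 ratio of a single Si library to the no-Si mean was 0.67, 0.74 and 0.73 for replicates 1, 2 and 3. The rule required every member to be above the no-Si leaves in each of them, replicate 3 with the shared labelled date included. The part of that date therefore cannot be read from these values. Leaf levels were also compared after other scalings: 128 members stayed completely separated in leaves with TMM factors (edgeR's trimmed mean scaling) and 124 with DESeq2's size factors.

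In roots the members showed no common direction with Si. The log2 ratio of root means, with the same 0.5 added, ran from −1.06 to 0.95 with a median of 0.07, against 0.03 over the expressed leaf genes. It was above 0 in 88 members and below in 61, where 58.5% of the expressed leaf genes lay above. In 18 members no root library exceeded 0.5 CPM. The rule had removed genes whose Si roots all lay above their no-Si roots. Root no Si 1 was the highest no-Si root in 78 members (52%), against 28.0% of the expressed leaf genes and 26.5% of the 2475 genes separated in leaves. What sets the members apart in this was not tested.

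Of the 15 members with a root ratio of at least 0.5, 11 had root no Si 2 under 0.5 times the mean of root no Si 1 and 3. A low no-Si library itself raises that ratio, and the share among other genes with such a ratio was not counted. BnaA08g00370D, with the highest root ratio of 0.95, held 8.92, 0 and 11.7 CPM in roots without Si and 15.9, 7.19 and 17.9 CPM with Si, so its groups overlapped. BnaA01g28080D, by contrast, held 41.0, 42.5 and 71.4 CPM without Si and 68.2, 90.7 and 69.5 CPM with Si, and did not have a low replicate 2.

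In 5 members (3.33%) every Si root lay below every no-Si root, against 4.76% of the expressed leaf genes, so the share was near the background. They were BnaC07g50920D, BnaC09g22320D, BnaCnng26710D, BnaC06g24000D and BnaAnng32610D. BnaCnng26710D had the lowest root ratio, −1.06, with 4.18, 3.29 and 4.35 CPM without Si and 1.29, 2.90 and 0.719 CPM with Si. In leaves, where it was far higher, it held 202.2, 314.5 and 291.9 CPM without and 504.2, 359.4 and 396.3 CPM with Si. BnaAnng32610D held 16.0, 15.5 and 12.1 CPM in roots without and 10.8, 7.02 and 7.07 CPM with Si, and 1.61, 0.762 and 0.859 CPM against 2.19, 1.78 and 1.82 CPM in leaves. BnaC09g22320D was of the same kind, with root means of 16.4 ± 3.48 and 10.2 ± 2.75 CPM and leaf means of 1.51 ± 0.615 and 3.04 ± 0.556 CPM (SD, n = 3).

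**Figure D4:**
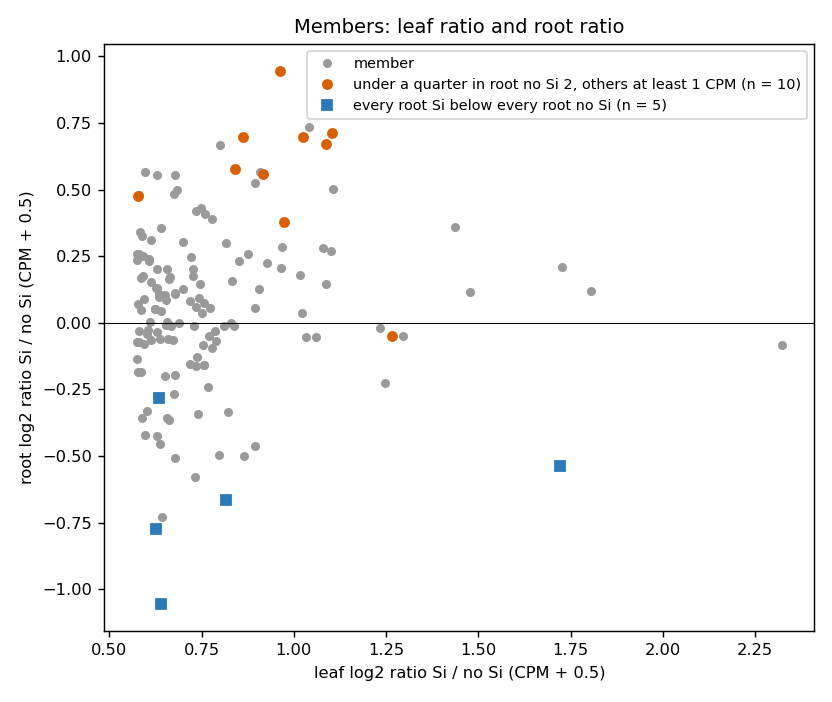
Each point is a member, with the log2 ratio of Si over no Si from CPM + 0.5 in leaves on the horizontal axis and in roots on the vertical axis. Blue squares are the 5 members whose Si roots all lay below the no-Si roots, and orange points are members with root no Si 2 under 0.25 times the mean of root no Si 1 and 3, drawn where that mean was at least 1 CPM, and all lie above 0 except BnaC02g42720D at −0.05. Root ratios lie on both sides of 0 around a median of 0.07.

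Fits in roots and of the interaction gave few calls, and the rule used both contrasts. In roots 129 members were tested with edgeR (Benjamini-Hochberg adjustment) and 0 passed, against 0.00235% of all genes. At an unadjusted p under 0.05 edgeR counted 13 of the 129, against 8.86%. DESeq2 counted 1 member, BnaAnng32610D, as lower with Si in roots (Benjamini-Hochberg adjusted p = 0.0332), against 0.79% of all genes lower. For the difference of the Si effect between organs, 0 of 150 members passed by edgeR (smallest Benjamini-Hochberg adjusted p = 0.958), where 0.0% of all genes passed and 58 members had an unadjusted p under 0.05 against 4.03%. DESeq2 counted 2, BnaC07g50920D and BnaCnng38050D (Benjamini-Hochberg adjusted p = 0.00249 and 0.0286), both with a lower Si effect in roots, against 0.00663% of all genes. BnaCnng38050D held 3.58, 2.91 and 3.33 CPM in leaves without Si and 6.52, 7.70 and 4.92 CPM with Si, beside 28.9, 46.1 and 38.5 CPM and 29.4, 25.9 and 24.5 CPM in roots.

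The comparison of roots with leaves was not used to choose the members, apart from the leaf level and the leaf shift with Si. A gene was called higher in an organ at an edgeR Benjamini-Hochberg adjusted p under 0.05 together with a log2 difference of at least 1. Without Si, 149 members were tested, of which 41 (27.5%) were higher in roots, against 22.7% of all genes tested and 14.6% of the expressed leaf genes. Another 34 (22.8%) were higher in leaves, against 23.4% and 26.7%, and 74 met neither call. The median fitted log2 difference of roots over leaves was 0.14 in the members and −0.15 in the expressed leaf genes. The members' median was the same with the 4 members that had 0 reads in no-Si roots set at their bound, and so was the median with Si, given below, for the 3 with 0 reads in Si roots. The members leaned towards low leaf levels, as given above, and the rule favours low no-Si leaves. Their part in the share higher in roots was not tested.

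These counts depend on the scaling. Roots and leaves differ so widely that the median gene stood 0.71 (no Si) and 0.68 (Si) higher in roots on the log2 CPM scale, and TMM factors averaged 0.774 in leaves and 1.29 in roots. With library totals alone, 72 members were higher in roots without Si, where 41.0% of all genes tested were, and 31 were higher in leaves, against 16.2%. With Si the counts were 40 and 41, against 40.4% and 16.2%. The calls over all genes thus moved along with those of the members.

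The members highest in roots relative to leaves were BnaA01g28080D, BnaA07g26030D and BnaC06g24000D. BnaA01g28080D stood at 51.6 ± 17.1 CPM in no-Si roots and 1.57 ± 0.863 CPM in no-Si leaves (SD, n = 3), a fitted log2 difference of 4.24 (SE 0.39; edgeR, Benjamini-Hochberg adjusted p = 2.67e-05). BnaA07g26030D held 22.8, 14.4 and 13.0 CPM in those roots and 0.780, 0.832 and 0.483 CPM in those leaves, a log2 difference of 3.84 (SE 0.34). BnaC06g24000D held 47.3, 39.3 and 38.8 CPM and 2.16, 1.11 and 2.42 CPM, a log2 difference of 3.70 (SE 0.26). For all 3 every root library exceeded every leaf library. In leaves BnaA01g28080D was separated by the narrowest of margins, 1.79, 0.624 and 2.31 CPM without Si against 3.29, 2.86 and 2.31 CPM with Si. The differences of the 3 with Si were 4.04, 2.57 and 2.70.

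At the leaf end, 4 members had 0 reads in all no-Si roots. BnaA06g27930D held 14.6, 23.4 and 19.0 CPM in no-Si leaves and 26.9, 34.3 and 27.4 CPM in Si leaves, and was at least 314.2-fold higher in no-Si leaves than the limit of 3 reads over the 3 root libraries. BnaC08g50010D held 4.96, 5.54 and 3.92 CPM in no-Si leaves and 8.08, 6.15 and 8.16 CPM in Si leaves, and was at least 79.4-fold higher by the same limit. Each had 1 read in all Si roots together. BnaC09g23280D was measured in roots, at 0.385, 0.190 and 0.192 CPM, beside 65.2, 74.3 and 117.1 CPM in no-Si leaves, a fitted log2 difference of −9.06 (SE 0.40; edgeR, Benjamini-Hochberg adjusted p = 5.94e-07). Its Si leaves held 155.5, 148.6 and 140.1 CPM.

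With Si, all 150 members could be tested, of which 22 (14.7%) were higher in roots, against 24.0% of all genes tested and 15.5% of the expressed leaf genes. Another 55 (36.7%) were higher in leaves, against 23.1% and 26.3%. All 34 members called for leaves without Si were also called with Si, joined by 19 that had met neither call. Of the 41 called for roots without Si, 21 kept the call, 19 met neither and 1, BnaC07g50920D, passed to leaves. BnaC04g15370D, low in both no-Si replicates 2, gained a root call, and BnaA01g24950D, not tested without Si, had a leaf call. The median difference was −0.49 in the members, against −0.15 in the expressed leaf genes. This move towards leaves follows from the choice of members with higher Si leaves and is no separate result.

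BnaC08g37940D illustrates it, with a root over leaf log2 difference of 3.25 (SE 0.52; edgeR, Benjamini-Hochberg adjusted p = 0.000893) without Si and 0.77 (SE 0.44; edgeR, Benjamini-Hochberg adjusted p = 0.161) with Si. BnaC07g50920D went from 2.25 (SE 0.46) to −1.004 (SE 0.31; edgeR, Benjamini-Hochberg adjusted p = 0.0142), a value at the limit of the call, which was lost in 6 alternatives, among them −0.72 without leaf Si 3 and −0.30 with library totals. BnaA06g11500D kept its root call, at 3.36 (SE 0.52) and 1.89 (SE 0.14). BnaA02g17670D had no call in either, at 0.88 (SE 0.29) and −0.45 (SE 0.14), the last of which was 0.27 with library totals.

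**Figure D5:**
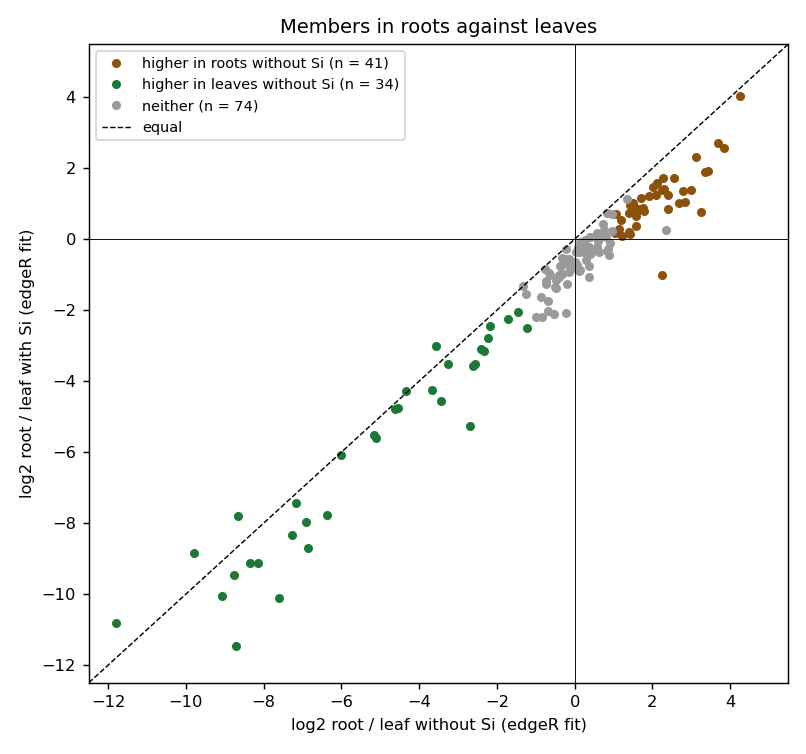
Each point is a member, with the edgeR log2 difference of roots over leaves without Si on the horizontal axis and with Si on the vertical axis, coloured by its call without Si (brown for roots, green for leaves, grey for neither). The dashed line marks equal values. Of 149 members, 143 lie below it, a shift fixed by the rule, and points at the lower left with few or no root reads have sizes that depend on the prior count.

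By position the members were spread over the genome, with 74 (49.3%) on the A subgenome and 76 (50.7%) on the C subgenome, against 52.8% and 47.0% of the expressed leaf genes. Unplaced C sequence held 19 members (12.7%), against 6.67%, and A01 held 11 (7.33%), against 4.50%. Of those 19, 5 stand in the Cnn run given above. A02 held 3 (2%), against 4.03%, and A09 held 6 (4%), against 6.90%. Chromosome C03 was left out by the rule.

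Only 9 members stood within 10 gene numbers of another, in 4 groups. The largest was BnaCnng01610D, BnaCnng01660D and BnaCnng01740D, in the run that was low in leaf no Si 2. The 3 differed between organs: BnaCnng01610D had 6 reads in all no-Si roots, BnaCnng01660D stood at 15.1 ± 6.48 CPM there against 5.36 ± 2.74 CPM in no-Si leaves, and BnaCnng01740D at 4.42 ± 3.09 against 7.23 ± 2.22 CPM (SD, n = 3). BnaC08g49210D and BnaC08g49300D differed by CPM. The first held 0.0551, 0.380 and 0.192 CPM in no-Si roots beside 5.51, 3.60 and 3.87 CPM in leaves. The second held 2.09, 0.759 and 1.41 CPM beside 1.24, 1.04 and 0.913 CPM. BnaC05g13310D and BnaC05g13360D were both more abundant in no-Si roots by CPM, at 9.76 ± 4.65 against 1.103 ± 0.172 CPM and 49.9 ± 23.1 against 17.1 ± 4.78 CPM (SD, n = 3). BnaA10g04940D and BnaA10g04960D met neither call without Si, at 0.40 and 0.59 (fitted log2, roots over leaves). Neighbours thus differed in direction in the first group. In the second the fitted log2 values were −5.10 for BnaC08g49210D, called for leaves, and −0.32 for BnaC08g49300D, which met neither call. Both lay on the leaf side, though by CPM they differed in direction. The other groups leaned towards roots.

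Of the named members matching RefSeq, BnaCnng49470D held 1.84, 1.73 and 2.09 CPM in leaves without Si and 2.88, 2.35 and 4.03 CPM with Si, and 2.00 ± 0.675 and 2.63 ± 0.348 CPM in roots (SD, n = 3). Its groups in leaves were separated by a ratio of 1.12 at the closest libraries. RefSeq lists it on C5 of its own assembly, where the identifier leaves it unplaced.

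The genes whose profile was most like that of BnaC08g37940D over the 12 libraries, by Pearson's correlation of log2 CPM among 42504 genes, were BnaA08g11390D (r = 0.97), BnaA04g05980D (r = 0.96) and BnaA06g05150D (r = 0.95), all members. After each organ's mean was taken out the values were 0.92, 0.95 and 0.89. For BnaA08g11390D the closest were BnaC08g37940D and BnaA04g05980D, both with r = 0.97, and BnaA06g10000D, which is no member, with r = 0.97. Members share higher Si leaves by choice, and taking out each organ's mean leaves that difference in. Likeness among members is therefore partly set by the rule. The points also share their libraries and depth. BnaA04g05980D shared the high leaf Si 3, with 15.1, 17.1 and 34.5 CPM with Si beside 14.6, 8.04 and 9.56 CPM without.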

How the data were processed

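The labels' protocols give poly(A) selection and stranded, paired-end TruSeq libraries. The authors deposited whole-number counts of reads per gene for 52962 identifiers, for either strand and for each strand. The reverse column was used as the sense count. Per the file headers, unmapped, multimapping, out-of-gene and ambiguous reads were counted apart. The submitters' processing notes name TopHat2 and Bowtie2. Their versions, the build, the annotation and the counter: not given in the sources used here.

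CPM was computed per 1000000 summed gene counts. Fits used edgeR 4.0.16 (R 4.3.3) over the libraries compared, with TMM factors, filterByExpr, robust quasi-likelihood tests, two-sided, and Benjamini-Hochberg adjustment over all genes tested. The fits of Si within each organ and of organ within each treatment were run on simulated counts with the same dispersion for every gene. That run did not cover the interaction or the differences between replicates given below. Alternatives were DESeq2 1.42.0, other scalings and filters, either-strand counts and a block for the replicate number. A term for the labelled planting date (leaves) and leaving out each library were further alternatives. Replicate pairs differed beyond sampling noise (chi-square 5.55 to 40.6 per degree of freedom). Same-number roots and leaves deviated together with Si (r = 0.19, 0.14 and 0.24), while in the other comparisons not every pair reached a correlation of 0.1. Without Si the same-number roots and leaves had r = −0.03, 0.38 and 0.13, highest for replicate 2. Different numbers there reached up to 0.23. Over 122 members the same-number values without Si were 0.49, 0.86 and 0.60, and different numbers reached up to 0.53. The pair with r = 0.24 joins a leaf and a root library with different labelled planting dates. Whether equal numbers mark the same plants is therefore not settled. The numbers were used as pairs only in the alternative with the replicate block, not in the reported fits.

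The members and lists were chosen with earlier results of these data known. Of all identifiers, 2287 equalled a RefSeq symbol, and no gene list or marker could be matched by name. Named genes are the first 10 members, those at the limit of the list, the extremes between organs, RefSeq matches, members near each other and the genes most like the first 2. Others were chosen after their values were seen.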

Additional observations from a re-analysis of the deposited data

Results flagged for a closer look

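In 5 members the leaf Si libraries all lay above the no-Si leaves, as the choice required, while the root Si libraries all lay below the no-Si roots. The log2 ratio of root means was −0.54 in BnaC07g50920D, −0.66 in BnaC09g22320D, −1.06 in BnaCnng26710D, −0.28 in BnaC06g24000D and −0.78 in BnaAnng32610D. These are 3.33% of the members, against 4.76% of the expressed leaf genes with the same order in roots. The organ by Si difference, which the rule used in part, was fitted for all members: edgeR called none of the 5 (unadjusted p under 0.05 in all 5), and DESeq2 called BnaC07g50920D (Benjamini-Hochberg adjusted p = 0.00249). The 5 were picked for opposite orders in leaves and roots. Small p-values for this difference were thus set by that choice, and no support is drawn from them.

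Reads on the strand opposite to BnaAnng18540D entered the comparisons only in the either-strand alternative. They stood at a mean of 1.73 CPM in Si leaves and 0.680 CPM in no-Si leaves, with every Si leaf above every no-Si leaf. The counts were 13, 10 and 14 reads without Si and 29, 38 and 35 with Si. Of the 5 members with over 5% of reads on that strand, only this member had that order. The share over all genes was not counted. The sense reads of that member stood at 7.88 ± 1.92 and 4.56 ± 1.26 CPM (SD, n = 3).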

How the results depend on the processing

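Of 696 values of the organ differences of 29 named members under the alternatives, 648 kept their direction and their side of the threshold, 19 lost the call, 20 gained it and 9 reversed. With library totals as the scaling, chosen after seeing the data, BnaC02g42720D became 0.0378, BnaCnng49470D 0.0823 and BnaC08g49300D 0.42 without Si, and BnaA02g17670D became 0.27 and BnaC08g49300D 0.18 with Si. With Si, leaving out 1 library at a time gave −0.0496 (without leaf Si 2) to 0.441 for BnaA01g28190D, −0.0245 (without root Si 3) to 0.171 for BnaC02g00460D, which was also −0.0119 without leaf Si 2, and −0.0211 (without root Si 2) to 0.174 for BnaC05g13360D. None of these had a call in the reported fit, and the cause was not tested. The same scaling gave 72 members higher in roots without Si and 40 with Si, in place of 41 and 22, while the share of all genes called higher in roots went from 22.7% to 41.0% and from 24.0% to 40.4%. Leaving out 1 library at a time gave 40 to 42 root and 32 to 36 leaf calls without Si, and 20 to 24 and 52 to 57 with Si. The replicate block, which pairs roots and leaves of the same number, gave 42 and 36 calls without Si and 21 and 55 with Si, and 0 members for Si in leaves, in roots and for the interaction. DESeq2 counted 7 members in leaves, 1 in roots and 2 for the interaction where edgeR counted 0. With a term for the labelled planting date in leaves, the Si effect rested on leaf Si 3 alone among the Si leaves, so no count is drawn from that fit.

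The list itself was less stable. Of the 150 members, 73 remained with a leaf floor of 5 CPM, 106 and 135 with pseudocounts of 2 and 0.1, 123 with TMM scaling, 122 with DESeq2's factors and 145 with either-strand counts. Leaving out 1 leaf library at a time kept 51 to 97, where complete separation is easier with fewer libraries and 3174 to 5653 genes qualified in place of 2177. Depth limits the 33 members under 2 CPM in leaves.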

Other observations

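Opposite-strand reads exceeded 5% of the stranded reads in 5 members. BnaC06g34520D stood out with 82.7%, 869 reads on the opposite strand against 182 on its own over the 12 libraries. Its sense reads stood at 1.19, 1.04 and 0.644 CPM in leaves without Si and 2.37, 1.97 and 1.48 CPM with Si. Its opposite-strand reads averaged 2.14 CPM without and 2.96 CPM with Si in leaves, and those groups overlapped. The median member had 0.204% of its reads on the opposite strand.

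BnaA01g24950D did not pass the low-count filter between organs without Si. It held 5.74, 0.416 and 6.39 CPM in leaves without Si and 1 read in all in the no-Si roots, and was called higher in leaves with Si by edgeR.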
